A study of Mus musculus with 4 samples.

Results

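Semaphorins, plexins and neuropilins were described by the H3K4me3 peaks at their promoters in the left cerebral cortex. They comprised every protein-coding gene whose symbol is Sema plus a number or Plxn plus a letter, with Nrp1 and Nrp2, which gave 31 of the 21938 protein-coding genes of GENCODE M21. Of these, 20 encode ligands (the semaphorins) and 11 encode receptors (9 plexins and 2 neuropilins). H3K4me3, the trimethylated form of lysine 4 of histone H3, is a mark of active and poised promoters. Chromatin immunoprecipitation with sequencing (ChIP-seq) located it in untreated female mice aged 2 months of the strain B6CASTF1/J, the F1 hybrid of C57BL/6J and CAST/EiJ. There were 4 libraries, prepared as 2 technical replicates of pool I and 2 of pool J, each pool made of 4 biosamples. Both libraries of a pool fed 1 peak list, so each pool counts once, no test between pools was possible and the read depth behind each list was unknown. Whether the biosamples were separate animals is not stated in the labels, and differences between pools may therefore be technical.

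Semaphorins are guidance cues that steer growing axons and migrating cells, and in the adult brain they act on synapses and blood vessels. Class 3 members are secreted, classes 4 to 6 span the membrane and Sema7a is held by a lipid anchor. Plexins are the signalling receptors, whose cytoplasmic part acts on small GTPases of the Ras family. Neuropilins bind most class 3 semaphorins and pass the signal on through plexins of class A.

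The cortex label was set against markers of cell types. Promoters of 6 of 6 excitatory neuron markers and of 3 of 3 inhibitory neuron markers met a peak of the replicated list, the list called on both pools. So did 4 of 4 astrocyte, 3 of 4 oligodendrocyte, 2 of 4 microglial and 3 of 3 endothelial markers, while those of liver, muscle and choroid plexus had none. The 2 marked microglial promoters, Cx3cr1 and Tmem119, had an enrichment of 3.13 each and met no peak in pool I or pool J. Of the 4 markers 1 was marked in pool I, a different gene, and 0 were marked in pool J. The tissue was profiled in bulk, so a promoter marked in fewer cells and one marked less in each cell cannot be told apart.

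Sequence is shown for the promoters at the extremes of the family, so that the bases under the widest, narrowest and absent marks can be read. Each run holds the 250 bases before a RefSeq start (GRCm38.p6, the mm10 reference sequence, which carries C57BL/6J bases), 5′ to 3′ on the gene's strand, with CG dinucleotides in capitals. Sema7a had the widest ligand domain (chr9:57939862-57940111, plus strand) and Sema3g the narrowest (chr14:31217623-31217872, plus strand). Nrp1 had the widest receptor domain (chr8:128358823-128359072, plus strand) and Plxna3 the narrowest (chrX:74328816-74329065, plus strand). Plxnb3 (chrX:73756853-73757102, plus strand) met no peak. Plxnb2 is shown at its upstream start (chr15:89180789-89181038, minus strand) and at an internal RefSeq start (chr15:89173952-89174201, minus strand), for a peak described further on.
Sema7a: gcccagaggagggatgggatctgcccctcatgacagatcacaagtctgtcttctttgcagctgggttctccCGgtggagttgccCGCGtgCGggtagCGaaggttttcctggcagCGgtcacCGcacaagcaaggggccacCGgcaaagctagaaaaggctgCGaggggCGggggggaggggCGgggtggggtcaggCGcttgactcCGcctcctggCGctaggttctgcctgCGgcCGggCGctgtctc
Sema3g: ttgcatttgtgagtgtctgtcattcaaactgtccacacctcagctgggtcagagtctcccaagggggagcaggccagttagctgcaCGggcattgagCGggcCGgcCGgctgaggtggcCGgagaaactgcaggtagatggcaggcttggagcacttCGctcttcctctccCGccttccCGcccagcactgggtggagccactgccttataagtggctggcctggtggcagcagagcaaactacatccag
Nrp1: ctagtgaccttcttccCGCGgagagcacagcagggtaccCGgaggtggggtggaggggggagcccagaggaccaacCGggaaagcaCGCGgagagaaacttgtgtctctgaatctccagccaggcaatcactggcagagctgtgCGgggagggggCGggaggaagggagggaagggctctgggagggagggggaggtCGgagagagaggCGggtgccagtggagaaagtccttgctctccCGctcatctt
Plxna3: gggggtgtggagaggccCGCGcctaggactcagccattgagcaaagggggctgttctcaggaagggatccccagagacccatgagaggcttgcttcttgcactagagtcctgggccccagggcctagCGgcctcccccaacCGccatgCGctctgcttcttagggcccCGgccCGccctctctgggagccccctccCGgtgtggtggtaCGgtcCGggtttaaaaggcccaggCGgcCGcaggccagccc
Plxnb3: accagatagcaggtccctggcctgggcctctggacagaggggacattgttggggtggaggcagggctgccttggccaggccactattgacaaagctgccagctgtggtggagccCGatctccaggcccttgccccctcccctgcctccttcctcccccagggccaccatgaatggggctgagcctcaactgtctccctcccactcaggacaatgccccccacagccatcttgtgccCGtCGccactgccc
Plxnb2 upstream: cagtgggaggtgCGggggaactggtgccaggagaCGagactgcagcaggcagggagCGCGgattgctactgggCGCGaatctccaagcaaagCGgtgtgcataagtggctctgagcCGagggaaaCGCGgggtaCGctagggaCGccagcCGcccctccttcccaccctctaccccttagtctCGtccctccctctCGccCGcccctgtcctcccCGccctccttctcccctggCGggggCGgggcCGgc
Plxnb2 internal: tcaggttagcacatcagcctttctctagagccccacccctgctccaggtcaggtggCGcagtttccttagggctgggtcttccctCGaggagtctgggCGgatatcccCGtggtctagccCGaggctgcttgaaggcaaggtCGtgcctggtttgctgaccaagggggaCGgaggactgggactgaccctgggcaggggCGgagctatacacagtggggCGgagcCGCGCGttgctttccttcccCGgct

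The upstream run of Plxnb2 held 20 CG dinucleotides, that of Sema7a 17, that of Plxna3 12 and that of Nrp1 11, and peaks covered all 250 bases of each in the replicated, pool I and pool J lists. The internal run of Plxnb2 held 13 and was also covered in full in the 3 lists. The runs of Sema3g and Plxnb3 held 8 and 3. Peaks covered 0 bases of the Sema3g run in the replicated list, 13 bases in pool I and 0 bases in pool J, and 0 bases of the Plxnb3 run in all 3 lists. The runs left uncovered in the replicated list were thus those with the fewest CG dinucleotides among the 7 shown. These were chosen by the marks of their genes, and the Sema3g run ends before its replicated peak begins. A link between CG count and mark was not tested on them.

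In RefSeq windows of 300 bases (250 before and 50 after a start), the letters GGGCGG, read on either strand and themselves holding a CG, were present in 27 of 37 windows of the 26 members with an entry (73.0%). They were present in 47.8% of 20145 windows of all genes. TATAAA, on either strand, was in none of the 37 windows, against 12.2% of all windows. A match is a run of letters and not a shown site. Plxna1, Plxna4, Sema3b, Sema3f and Sema6a had no entry.

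A promoter was called marked when a peak lay within 1000 bases of any annotated start of the gene, and peaks up to 1000 bases apart were joined into a domain. By this rule 29 of the 31 members were marked in the replicated list, 29 in pool I and 28 in pool J. Among all protein-coding genes the marked shares were 65.2%, 64.8% and 63.9%. The members' median observed-to-expected CpG ratio around the 5′-most start was 0.59, against 0.47 in all protein-coding genes. Of all genes with a ratio of 0.556 to 0.628 there, 96.4% were marked in the replicated list. The part of CpG content in the members' share was not tested. Both classes of molecule were nearly complete: 19 of 20 ligands and 10 of 11 receptors were marked in the replicated list. The exceptions were Sema3b and Plxnb3, which met no peak in any list, and Sema3g, which met one in pool I but not in pool J.

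Promoter domains of the members were wide, while their enrichment was not above that of all genes. Their median width was 3160 bases in the replicated list, 3485 bases in pool I and 2925 bases in pool J, against 2124, 2193.5 and 2026 bases for all marked genes. In the replicated list 24 of 29 members lay above the all-gene median width. Height was read from the enrichment the authors gave for a domain's highest peak, a ratio taken as fold over control. Its median over the members was 18.1 in the replicated list, 18.8 in pool I and 18.7 in pool J, against 20.6, 20.6 and 20.4 over all marked genes. The members above the all-gene median numbered 9 of 29, 11 of 29 and 13 of 28.

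Broad domains, the widest 5% of marked genes in a list, began at 5166.4 bases in the replicated list. Of the 29 marked members 5 were broad (17.2%), against 5.0% of all marked genes, namely Sema7a, Nrp1, Plxna2, Plxna4 and Nrp2. In pool I 6 members were broad, against 5.01% of all marked genes, and in pool J 7 were, against 5.0%. Nrp2 at 5287 bases was just inside the threshold of the replicated list and Sema6a at 5137 bases just outside it. Sema6a passed the thresholds of both pools, and Plxnd1 that of pool J.

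**Figure D1:**
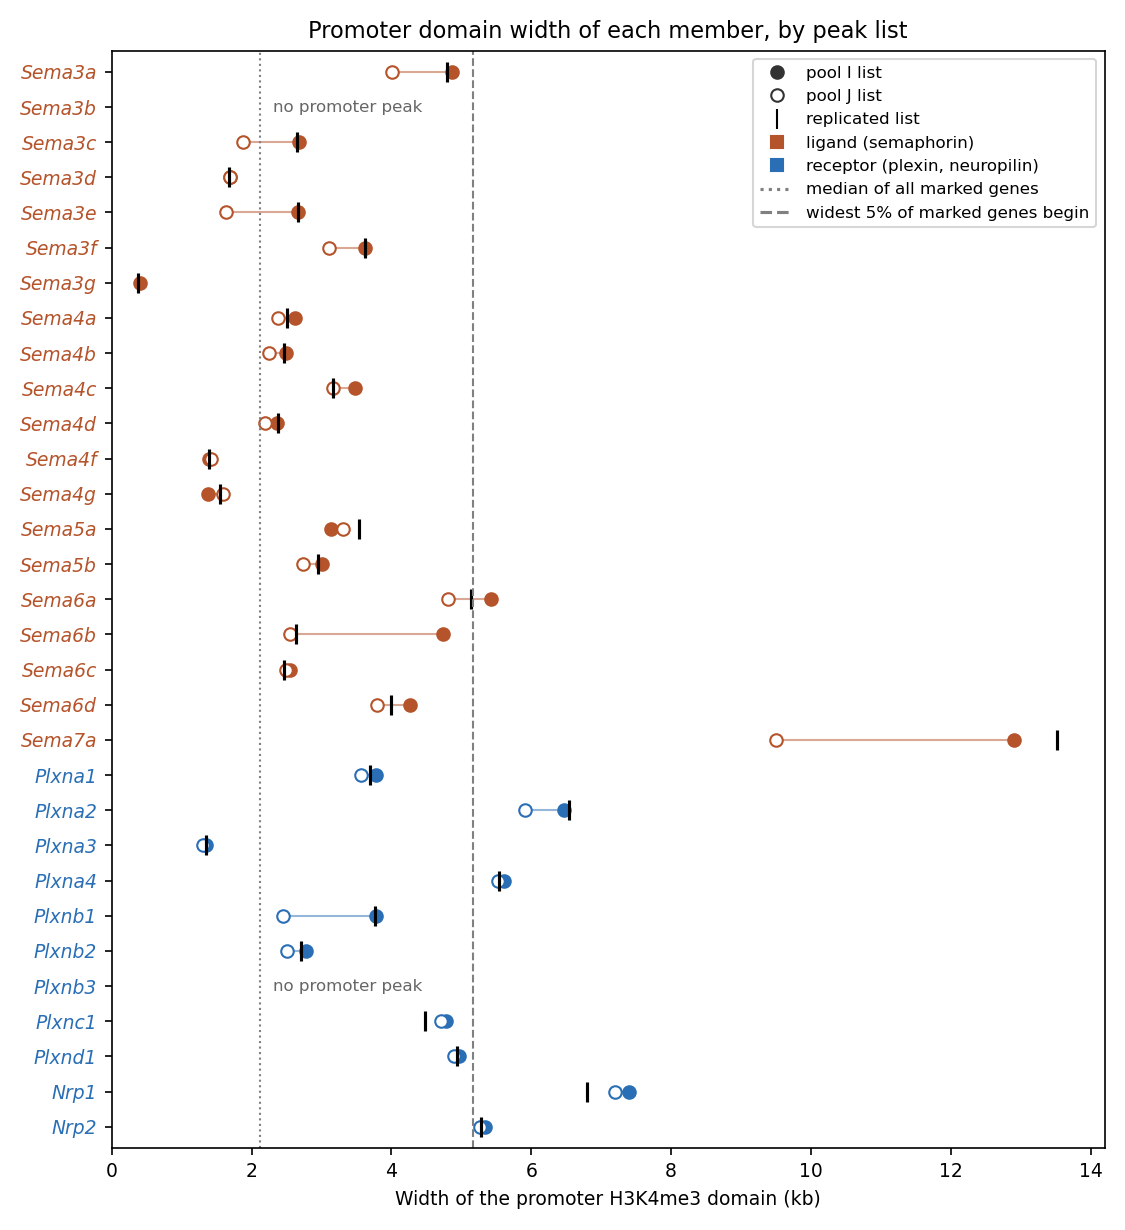
Width of the promoter H3K4me3 domain in kb (x axis) for each of the 31 members (rows, ligands above receptors), in pool I (filled circles), pool J (open circles) and the replicated list (ticks), with the all-gene median and the start of the widest 5% of the replicated list as lines. Sema7a stood furthest to the right in every list, and Nrp1, Nrp2, Plxna2 and Plxna4 lay beyond the dashed line in all 3 lists.

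**Figure D2:**
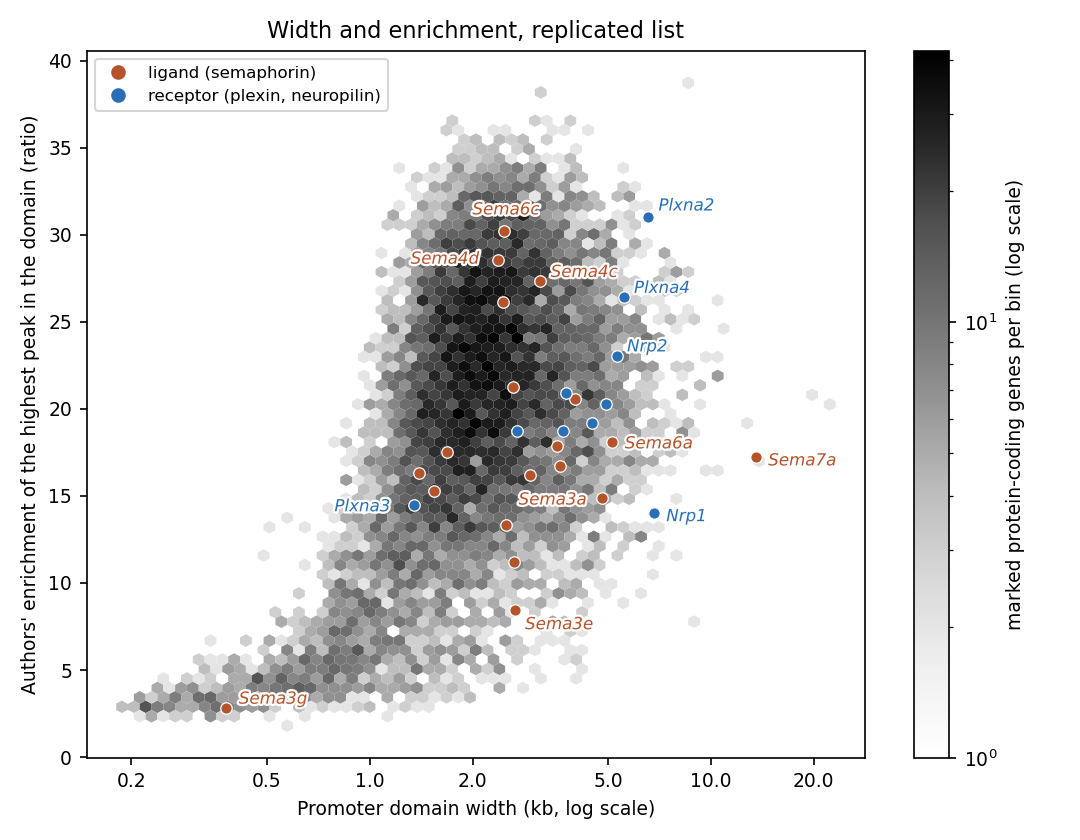
Domain width in kb on a log axis (x) against the authors' enrichment ratio of the domain's highest peak (y) in the replicated list, with the 29 marked members as points over the density of all 14293 marked genes. Plxna2 and Plxna4 were both wide and high, whereas Sema7a, Nrp1, Sema3a and Sema6a were wide with enrichments below this list's all-gene median of 20.6.

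Ligands had narrower promoter domains than receptors. The median over marked ligands was 2646 bases in the replicated list, 2680 bases in pool I and 2523.5 bases in pool J, against 4710.5, 4870 and 4800.5 bases over marked receptors. The difference, ligands minus receptors, was -2064.5, -2190 and -2277 bases. In the replicated list 1 of 19 marked ligands was broad, about the 5.0% of all marked genes, against 4 of 10 marked receptors. In pool I these counts were 2 of 19 and 4 of 10, and in pool J 2 of 18 and 5 of 10. Median enrichment was 17.2 in ligands and 19.7 in receptors in the replicated list, 18.2 and 21.0 in pool I, and 17.5 and 21.1 in pool J. The CpG content moved with this split: the median observed-to-expected CpG ratio around the marked start was 0.59 in ligands and 0.70 in receptors, against 0.62 in all marked genes, and its part in the width difference was not tested. The 2 roles overlapped, since the widest domain belonged to a ligand and the narrowest receptor, Plxna3, was below most ligands.

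The secreted class 3 ligands had the lowest marks. Of 7 genes 6 were marked, their width had a median of 2652 bases and their enrichment a median of 13.0, and none of the 6 reached the all-gene median enrichment. Sema3a, which repels cortical axons and collapses growth cones, had the widest domain of the class at 4789 bases in the replicated list, 4859 bases in pool I and 4014 bases in pool J. Its 5′-most annotated start, at 13125414 on chromosome 5, met no peak. The mark lay 273274 bases further along the gene, around internal starts at 13398688, within the domain chr5:13398494-13403282. Sema3a thus counts as marked through internal starts alone.

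Sema3f, a ligand that binds Nrp2, had widths of 3617, 3621 and 3113 bases in the replicated, pool I and pool J lists. Sema3e, which unlike its class binds Plxnd1 without a neuropilin, had 2658, 2660 and 1629 bases. The replicated width joined a peak of 1847 bases to a weak one of 722 bases. The weak peak had an enrichment of 1.86 and overlapped no peak of pool J. The enrichment of the Sema3e domain was among the lowest of the family, at 8.42 in the replicated list, 12.3 in pool I and 7.97 in pool J. Sema3c had 2646, 2680 and 1872 bases, and Sema3d 1680, 1687 and 1688 bases. Sema3d was the most alike between pools, while Sema3c and Sema3e were both wider in pool I.

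Sema3g, a class 3 ligand known from blood vessels, carried the weakest promoter mark. Its peak (chr14:31217883-31218262) was 380 bases wide with an enrichment of 2.83 in the replicated list, and 399 bases and 3.23 in pool I. In pool J the nearest peak was 10271 bases away. The peak began 23 bases downstream of the only annotated start, whose CpG ratio was 0.17. Sema3b had 14 annotated starts with CpG ratios of 0.15 to 0.35, and its nearest replicated peak was 2960 bases from a start. The mark and not the transcript was measured.

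The membrane-bound ligands of classes 4 to 7 were all marked, 13 of 13. In class 4 the median was 2418 bases for width and 21.2 for enrichment, near the all-gene value. Sema4d, a ligand of Plxnb1, had an enrichment of 28.6 in the replicated list, 29.4 in pool I and 26.6 in pool J over a domain of 2378 bases. Sema4c, a ligand of Plxnb2, had enrichments of 27.3, 29.3 and 28.0 over 3160 bases. Sema4b reached 26.1, 23.6 and 27.4 over 2458 bases. These 3 were high without being broad. Sema4f and Sema4g were narrow, at 1395 and 1547 bases in the replicated list, with enrichments of 16.3 and 15.3.

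Sema4a combined a low CpG ratio with a domain wider than the all-gene median. The CpG ratio around its marked start was 0.16, close to the 0.17 of Sema3g and the 0.16 at the 5′-most start of Sema3b. Its domain was nevertheless 2505 bases wide in the replicated list, 2618 bases in pool I and 2374 bases in pool J, with enrichments of 13.4, 13.1 and 12.8. At its 5′-most start the ratio was 0.19, and 23.0% of all protein-coding genes with 0.176 to 0.248 there had a marked promoter. Sema4a also had 17 annotated starts, 9 of which met a peak in the replicated list and in pool I, in 3 separate domains. In pool J 6 starts met a peak, in 1 domain.

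In class 5, whose extracellular part carries thrombospondin repeats, Sema5a had widths of 3536, 3140 and 3314 bases in the replicated, pool I and pool J lists and Sema5b 2955, 3000 and 2737 bases. Both had enrichments below the all-gene median, at 17.8 and 16.2 in the replicated list. In class 6, whose members bind class A plexins, the widest was Sema6a at 5137, 5421 and 4804 bases. Sema6d measured 3989, 4260 and 3787 bases, and Sema6c was narrow at 2469, 2554 and 2497 bases but high, with an enrichment of 30.2, the highest of all ligands in the replicated list. Sema6b measured 2633 bases in the replicated list, 4732 bases in pool I and 2550 bases in pool J.

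Sema7a, the anchored ligand of Plxnc1 and of beta-1 integrins, had the widest domain of the family. It measured 13519 bases in the replicated list (chr9:57938599-57952117), wider than 99.9% of all marked genes. It measured 12901 bases in pool I and 9492 bases in pool J, a mean of 11196.5 ± 2411 bases (SD, n = 2 pools). The domain reached 1513 bases upstream and 12005 bases downstream of the start and was joined from 6 peaks, with gaps of 88 to 765 bases. The peak over the start was itself 6118 bases wide, with an enrichment of 17.2, and the other 5 were intronic and weak, with enrichments of 2.66 to 4.77. The enrichment was 22.2 in pool I and 22.2 in pool J, above the all-gene medians of 20.6 and 20.4 in those lists. The peak over the start measured 6160 bases in pool I but 4633 bases in pool J, under the broad threshold of 4744.7 bases there, so the broad call in pool J was reached with joined peaks.

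Among the receptors, both neuropilins were broad in all 3 lists. Nrp1, the co-receptor of Sema3a, measured 6793 bases in the replicated list (chr8:128356586-128363378), 7391 bases in pool I and 7201 bases in pool J, with enrichments of 14.0, 12 and 15.3. Nrp2, the co-receptor of Sema3f, measured 5287 bases (chr1:62702650-62707936), 5344 bases and 5265 bases, with enrichments of 23.1, 22.0 and 23.3. Nrp1 was thus wider than Nrp2 in each list and lower in enrichment in each. The pools were close for both, at 7296 ± 134 bases for Nrp1 and 5304.5 ± 55.9 bases for Nrp2 (mean ± SD, n = 2 pools).

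Class A plexins, the partners of neuropilins and of class 6 semaphorins, were marked in 4 of 4 genes but differed among themselves. Plxna2 measured 6537 bases in the replicated list (chr1:194618931-194625467), 6470 bases in pool I and 5917 bases in pool J. Its enrichment of 31.0, 31.6 and 31.4 was the highest of all members in each list. Plxna4 measured 5542 bases (chr6:32583311-32588852), 5606 bases and 5518 bases, with enrichments of 26.4, 26.4 and 26.8. These 2 were broad in all 3 lists. Plxna1 measured 3687, 3784 and 3568 bases, and the X-linked Plxna3 only 1344, 1344 and 1311 bases with an enrichment of 14.5 in the replicated list. The CpG ratio at the marked start was 0.74 for Plxna2, 0.70 for Plxna4, 0.84 for Plxna1 and 0.41 for Plxna3.

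Of the class B plexins, receptors of class 4 ligands that act on RhoA, 2 of 3 were marked. Plxnb1 measured 3764, 3774 and 2446 bases in the replicated, pool I and pool J lists, and Plxnb2 2702, 2779 and 2501 bases. Plxnb3, a receptor of Sema5a, met no peak within 1000 bases of its 3 starts, and the nearest replicated peak was 19709 bases away. Its 5′-most start had a CpG ratio of 0.08, the lowest of any member. Plxnc1, the receptor of Sema7a, measured 4487, 4779 and 4706 bases. Plxnd1, the receptor of Sema3e, measured 4934, 4961 and 4895 bases, and these 2 differed little between pools.

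Known ligand and receptor pairs can be set side by side in the replicated list, as a description of pairs chosen from textbook knowledge after the widths were seen. Sema7a and Plxnc1 had replicated widths of 13519 and 4487 bases. Sema3e and Plxnd1 had 2658 and 4934 bases, with enrichments of 8.42 and 20.3. Sema4d and Plxnb1 had 2378 and 3764 bases, with enrichments of 28.6 and 20.9, whereas Sema4c and Plxnb2 had 3160 and 2702 bases. Sema6d and Plxna1 were close, at 3989 and 3687 bases, with enrichments of 20.6 and 18.8. Sema5a had 3536 bases and its receptor Plxnb3 no promoter peak. With their neuropilin co-receptors, Sema3a and Nrp1 had 4789 and 6793 bases, and Sema3f and Nrp2 3617 and 5287 bases. Within this set the wider promoter was the ligand's in some pairs and the receptor's in others.

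Domains reached mainly downstream of the start used, the 5′-most annotated start inside the domain, or the nearest where none lay inside. This choice lengthens the downstream reach where a domain holds several starts, and its part in the values below was not tested. In the replicated list 29 of 29 marked members had a domain that reached further downstream than upstream. Sema6b went the other way in pool I, with 2388 bases upstream and 2343 bases downstream. Among all 11388 marked genes alone in their domain in the replicated list the share was 92.9%. The median reach was 2721 bases downstream and 631 bases upstream over the members, against 1401 and 536 bases over those genes. The downstream reach was 2223 bases in ligands and 3989.5 bases in receptors, and the upstream reach 422 and 698.5 bases. Measured from the start used, most of the width difference between the roles thus lay downstream. No member's domain in the replicated list held the start of another protein-coding gene. The Sema3g peak, however, lay within 1000 bases of a start of Nisch on the opposite strand, so it met the promoter rule for both genes. Non-coding starts lay in 4 domains, those of Nrp1 (Mir1903), Plxnb1 (Gm7628, antisense), Sema4c (D430040D24Rik) and Sema5a (Snhg18).

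**Figure D3:**
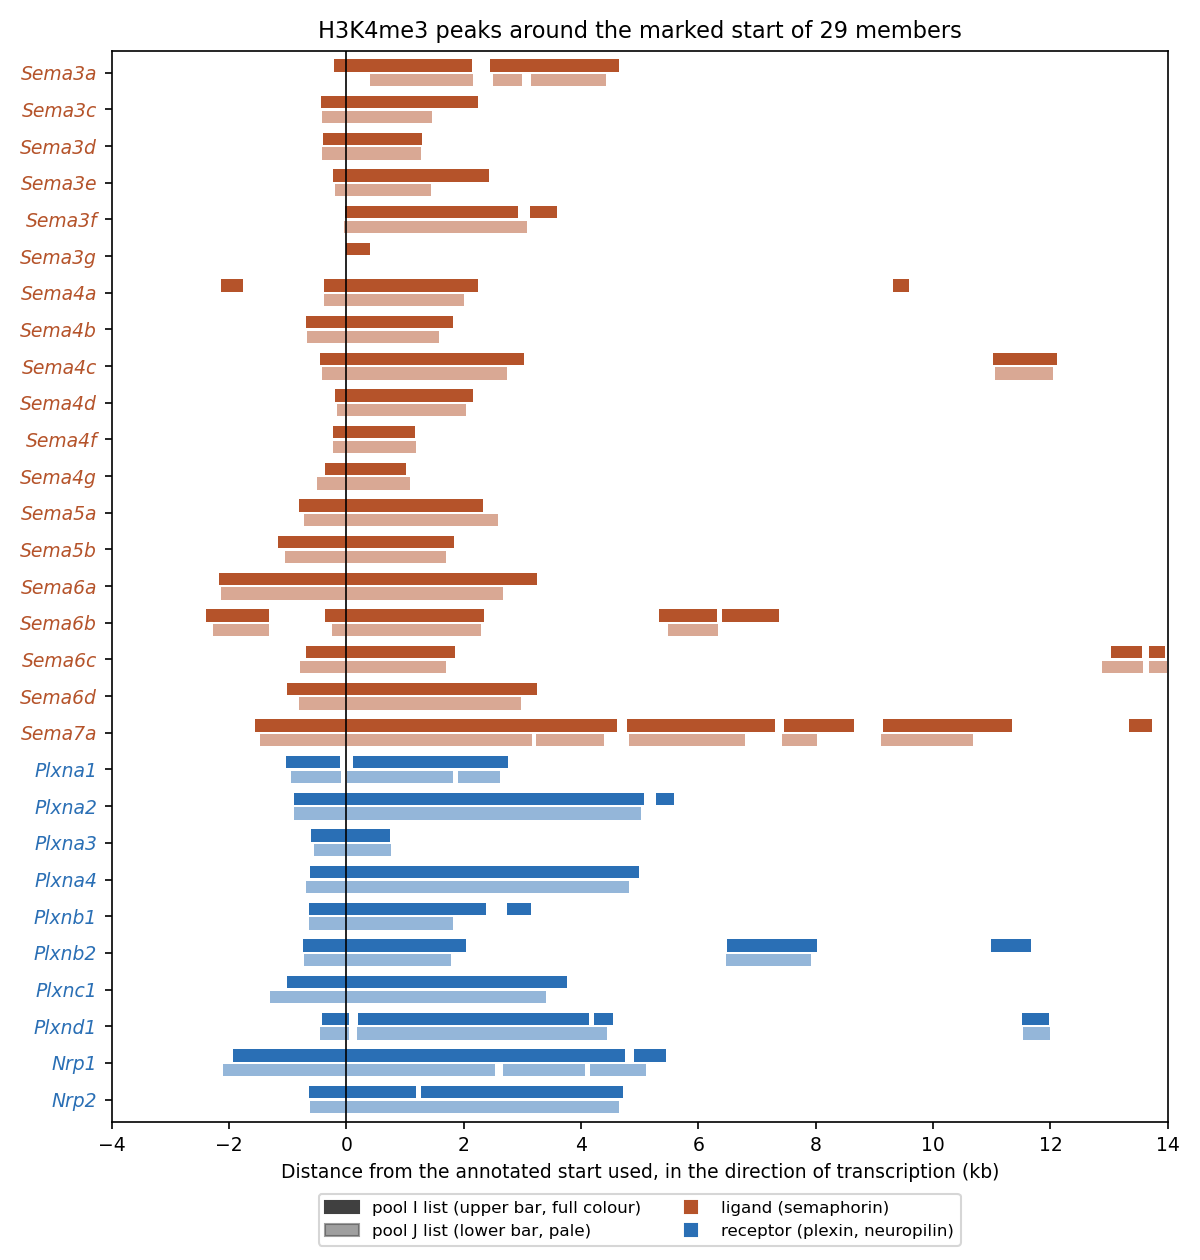
Peaks around the marked start of the 29 marked members (rows), as distance from that start in kb in the direction of transcription (x axis), with pool I as the upper and pool J as the pale lower bar of each row. The bars reach further to the right of the start than to the left in most rows, the Sema7a row runs past 9 kb in both pools, and a separate block lies near 7 kb in the Plxnb2 row.

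Members have many annotated starts, and peaks lay near only some of them. Of 200 annotated starts, 93 (46.5%) lay within 1000 bases of a peak in the replicated list, 93 in pool I and 88 (44.0%) in pool J. The 5′-most start was among them in 28 genes in the replicated list, 28 in pool I and 26 in pool J. The median CpG ratio was 0.607 around the 93 starts with a replicated peak and 0.232 around the 107 without one. Starts close to each other share bases of these windows and are not independent.

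**Figure D4:**
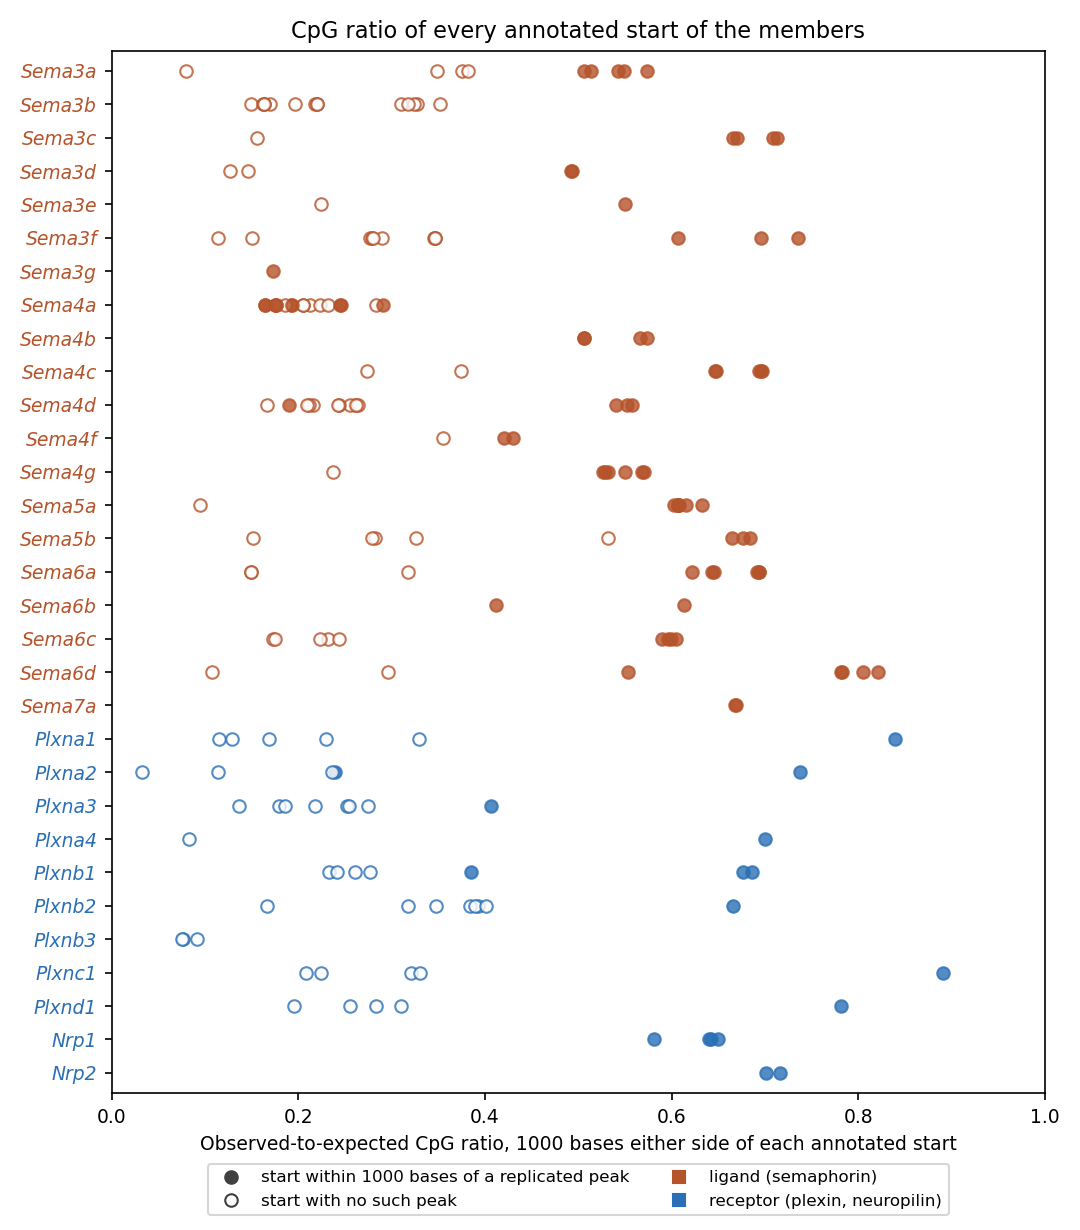
Observed-to-expected CpG ratio within 1000 bases of each of the 200 annotated starts (x axis), by member (rows), with filled points for starts near a replicated peak and open points for the others. Within most genes the filled points lie to the right of the open ones, whereas the filled points of Sema4a lie among its open points below 0.3.

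In 5 of 29 members (17.2%) separate domains of the replicated list marked more than 1 promoter, against 9.45% of all marked genes. They were Sema4a, Sema4b, Sema4d, Sema6b and Sema6d, all ligands. In pool I Plxnb2 took the place of Sema4d, and in pool J the count fell to 3 of 28 (10.7%), against 8.62% of all marked genes, namely Sema4b, Sema6b and Sema6d. Sema6d, the class 6 ligand of Plxna1, had its domain at 124610106 on chromosome 2 and a second promoter 520137 bases upstream. That second promoter carried an enrichment of 20.5 in the replicated list, 18.7 in pool I and 17.2 in pool J, against 20.6, 20.6 and 20.8 at the main domain, so both were strong. Sema4b likewise had marked promoters 11600 bases apart, with enrichments of 18.8, 15.0 and 18.2 at the upstream one. The second promoter of Sema6b was weak, at 2.65, 4.18 and 4.54. The second promoter of Sema4d had an enrichment of 3.03 in the replicated list and no peak in pool I or pool J. The further domains of Sema4a were also weak, at 2.93 and 4.05 in the replicated list and 2.85 and 5.13 in pool I. They had no peak in pool J.

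Inside the gene bodies, away from promoter windows and domains, 19 replicated peaks lay in 13 members, 16 with their summit in an intron and 3 in an exon. Of these, 11 overlapped a peak in both pools, 5 in 1 pool and 3 in neither. Their median width was 528 bases and their median enrichment 3.51, and 18 had enrichments of at most 7.22. The exception was in Plxnb2 (chr15:89172806-89174311, intronic), 1506 bases wide with an enrichment of 23.4 in the replicated list, 23.6 in pool I and 22.1 in pool J. That was above the 18.7, 16.6 and 19.5 of the annotated Plxnb2 promoter itself. No GENCODE start lay in it or within 1000 bases, but RefSeq annotates a start at 89173951, inside the peak, 3263 bases from the nearest GENCODE start. This peak was singled out after its value was seen, and its upstream bases are the last of the sequences shown.

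The pools differed slightly in width. Of the 28 members marked in both, 24 were wider in pool I and 4 in pool J, with a median ratio of pool I over pool J of 1.09. The same lean was present in all genes, where 76.6% of 13961 were wider in pool I and the median ratio was 1.07. The members' share was 85.7%. The ratio stayed within 1.5-fold for 25 of the 28. Beyond it were Sema6b at 1.86, Sema3e at 1.63 and Plxnb1 at 1.54, and the lowest was Sema4g at 0.868.

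For Sema6b the difference came down to the joining of peaks. An upstream peak of 1073 bases in pool I, 955 bases in pool J and 1042 bases in the replicated list had enrichments of 14.6, 15.0 and 16.3. In pool I it lay close enough to the promoter peak to be joined, and in the other 2 lists it did not. Without it the promoter peaks measured 2711 bases in pool I and 2550 bases in pool J.

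The wider pathway was marked almost throughout. Of 42 partner genes 41 were marked in the replicated list, 39 in pool I and 39 in pool J, against 65.2%, 64.8% and 63.9% of all protein-coding genes. Their median width in the replicated list was 3099 bases, against 2124 bases for all marked genes. The roles differed in replicated median width, with 3136 bases in cytoplasmic effectors, 3518 bases in the CRMP and kinase arm and 1966 bases in co-receptors. The co-receptor median was below the all-gene value there. It was 2672 and 2239 bases over the 9 marked in pool I and in pool J, against 2193.5 and 2026 bases. Co-receptors, the adhesion molecules, receptor kinases and other membrane proteins that semaphorins, plexins or neuropilins pair with, were marked in 11 of 12 genes and broad in none. Their widest domains were those of Nrcam at 4047 bases and Chl1 at 3614 bases, adhesion molecules of the L1 family. Tyrobp, an adaptor of myeloid cells, was unmarked. Trem2 and Cd72, also genes of immune cells, had small peaks of 283 and 599 bases in the replicated list and none in pool I or pool J.

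Cytoplasmic effectors were marked in 19 of 19 genes, with the widest domains of the replicated list at Mical2 (6142 bases), an enzyme that oxidises actin, and Rras (4667 bases), a GTPase on which plexins act. In pool J the order differed, with Rras at 4718 bases and Mical2 at 4356 bases. The CRMP and kinase arm, which carries the Sema3a signal to microtubules and actin, was marked in 11 of 11 genes. Of these 4 were broad, against 5.0% of all marked genes: Cdk5r1 at 8460 bases, Gsk3b at 8047 bases, Crmp1 at 6282 bases and Dpysl2 at 6013 bases. Among other guidance genes, ephrins, Eph receptors, slits, robos, netrins and netrin receptors served as the nearest comparison. The 29 marked members of the semaphorin family had a median of 3160 bases and 17.2% were broad, while the 38 comparison genes, all marked, had 3355 bases and 26.3%. This order did not hold between lists: the family had 3485 bases and 6 of 29 broad in pool I, against 3313 bases and 6 of 38, and 2925 bases and 7 of 28 broad in pool J, against 3105 bases and 8 of 38.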

How the data were processed

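H3K4me3 ChIP-seq peaks were taken as deposited. Pool I and pool J each gave 2 of the 4 libraries, and fragments ranged from 200 to 600 bases, per the labels. The authors deposited a peak list per pool, 1 for the pooled reads and 1 termed replicated, called on both pools, all on mm10 (25446 replicated, 24508 pool I and 21573 pool J peaks). The aligner, peak caller and read numbers were not given in the sources used here. No interval was computed. The authors' enrichment of each peak is a ratio, taken as fold over control, and served only to describe peaks within a list. The reported results used every deposited peak with no q filter. Alternatives filtered on the deposited −log10 q values, and the deposited score was not used. Peak positions, in bases, were deposited counting from 0 and are given counting from 1.

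Starts were those of GENCODE M21. A gene took its widest domain, after windows of 1000 bases and joining up to 1000 bases, with an overlap of at least 1 base. The CpG ratio is observed over expected CG dinucleotides within 1000 bases of a start. Python 3.11.15, numpy 2.4.6, pandas 2.3.3 and matplotlib 3.10.9 were used, and the scripts were tested on simulated data. With 1 list per pool, results are counts, medians and mean ± SD over 2 pools, with no test. Members, gene lists, cell type markers and alternatives were chosen with earlier results of these data known. Every member could be named; partner genes were named where unmarked and as the 2 widest of a role, and Trem2, Cd72, Nisch, Crmp1, Dpysl2, both microglial genes and the internal Plxnb2 promoter were added after their values were seen. Sequence was chosen for the widest, narrowest and unmarked members with a RefSeq entry, as the 250 bases before the start.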

Additional observations from a re-analysis of the deposited data

How the results depend on the processing

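Marked members numbered 28 or 29 and ligands were narrower than receptors in each of 11 alternatives, which varied the window, the starts, the joining distance, the overlap, the q filter and the list. Over 9 results, 85 values were labelled near the reported one, 14 moved and 0 turned round. The label was loose for counts, since 7 broad members with no joining passed as near the reported 5. Widths were judged against the SD between pools, 396 bases for the members' median and 61.5 bases for the ligand minus receptor difference. The results also overlap, because member counts contain those of ligands and receptors. The tally of 85 is thus not a measure of robustness. The members' median width was 2702 bases with no joining and 3617 bases with joining up to 2500 bases, against 1977 and 2190 bases for all marked genes. With joining up to 2500 bases 3 members were broad, Nrp2 and Plxna4 falling below the threshold. The ligand minus receptor difference was -1903.5 bases with no joining, -1755.5 bases with joining up to 2500 bases, and -2277 to -2190 bases in the lists of single pools. Sema3g lost its mark under a −log10 q filter at 5 and in pool J, and Sema3a with the 5′-most start alone. Sema6a was broad in 6 of the alternatives. Read depth is unknown, and its part in weak peaks such as that of Sema3g was not tested. No paired analysis was possible because each pool gave 1 peak list and no test was run.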
